A study of Mus musculus with 4 samples.

Results

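Known marker genes of disease-associated and phagocytic microglia, 10 in all, were followed through the cell types of the postnatal mouse cerebellum, in mice labelled WT and Eftud2 cKO. The genes were chosen by symbol: Lgals3, Axl, Spp1, Apoe, Trem2, Tyrobp, Cst7, Itgax, Lpl and Clec7a. Of these 10 genes, 9 were among the 32285 genes measured. Clec7a was not analysed here. The authors dissociated whole cerebella, with the meninges taken off, in trypsin and profiled single cells in droplets, where each captured RNA molecule is counted as a unique molecular identifier (UMI). There were 4 libraries, 1 for each genotype at postnatal day 10 (P10) and 1 for each genotype at postnatal day 14 (P14). Eftud2 encodes a GTPase of the spliceosome, and the series title names Purkinje cells as the deficient cells. The labels give only "WT" and "Eftud2 cKO", with no Cre line, deleted exon, sex or number of animals, and no macrophage is named as a target.

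Disease-associated microglia are a state described in ageing, demyelination and models of neurodegeneration, and a similar state appears for a short time in the white matter of the developing brain. In it, lipid handling, lysosomal and phagocytic genes are higher and homeostatic genes such as P2ry12 and Tmem119 are lower. Trem2 is a surface receptor for lipids and lipoproteins that signals through the adaptor protein made by Tyrobp, and the full state depends on it. Of the 9 measured genes, Apoe, Trem2 and Tyrobp are expressed broadly in resting microglia or glia, and the other 6 (Lgals3, Axl, Spp1, Cst7, Itgax and Lpl) are called inducible below.

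The P14 comparison is put first, since both P14 matrices carry the same program version in their headers. At P14, 8 of the 9 genes were higher in cKO microglia than in WT microglia, against 44.1% of all genes. For Apoe, Tyrobp and Cst7 this held with intervals above 0 among shallow, middle and deep cells, whereas Lgals3 was not higher among middle or deep cells. With 1 library per group no difference at 1 age can be tested, and the test of genotype over both ages called none of the 9 genes. Within every library, the microglia that had UMIs of at least 2 inducible genes also had more of nearly all other disease-associated genes that could be compared, and less P2ry12 and Tmem119.

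The promoters of 4 of the genes are shown, and a link between their motifs and the ratios was not tested. Axl, Cst7 and Itgax were picked by their values: their point value was higher in P14 cKO microglia at every cell depth that could be compared. Apoe and Tyrobp met this rule too and are not shown. No window was matched for Tyrobp, and no Apoe window holds either motif marked here. Both Itgax intervals and that of Axl in deep cells reach 0. Trem2 encodes the receptor of the pathway and holds both motifs marked. Each promoter is the 250 bases before the RefSeq start site (GRCm38.p6), 5′ to 3′ on the gene's strand. Capitals mark matches to GAGGAAG (or its reverse complement CTTCCTC), the core bound by the macrophage factor Spi1, and to TGANTCA, the AP-1 motif. Both strands were searched, and no 2 matches overlapped.
Axl promoter (chr7:25788734-25788983, minus strand): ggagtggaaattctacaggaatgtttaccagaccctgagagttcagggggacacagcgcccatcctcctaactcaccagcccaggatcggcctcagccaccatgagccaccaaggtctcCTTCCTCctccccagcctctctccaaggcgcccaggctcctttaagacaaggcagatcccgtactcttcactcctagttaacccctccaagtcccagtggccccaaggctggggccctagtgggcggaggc
Cst7 promoter (chr2:150570165-150570414, plus strand): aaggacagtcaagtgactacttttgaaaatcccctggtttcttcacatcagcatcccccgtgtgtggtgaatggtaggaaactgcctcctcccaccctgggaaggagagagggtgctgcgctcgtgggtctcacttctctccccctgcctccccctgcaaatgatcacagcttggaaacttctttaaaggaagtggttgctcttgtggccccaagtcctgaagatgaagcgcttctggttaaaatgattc
Itgax promoter (chr7:128129300-128129549, plus strand): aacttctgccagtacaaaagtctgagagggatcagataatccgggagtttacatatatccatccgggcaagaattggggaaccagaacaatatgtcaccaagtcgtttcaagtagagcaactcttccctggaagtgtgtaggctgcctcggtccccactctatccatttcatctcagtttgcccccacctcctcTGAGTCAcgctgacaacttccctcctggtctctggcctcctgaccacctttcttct
Trem2 promoter (chr17:48346151-48346400, plus strand): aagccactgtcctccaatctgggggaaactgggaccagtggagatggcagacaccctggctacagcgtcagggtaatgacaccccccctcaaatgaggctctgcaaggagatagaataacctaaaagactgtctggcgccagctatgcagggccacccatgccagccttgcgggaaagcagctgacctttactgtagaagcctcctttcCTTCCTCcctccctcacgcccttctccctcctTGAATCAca
RefSeq windows were matched for 8 of the 10 genes, 12 windows in all, as some genes have several start sites. GAGGAAG was present in Axl, Spp1 and Trem2, at -131, -113 and -41 from the start, though not in every Spp1 window. That is 3 of the 12 windows, against 10.6% of all 32851 promoter windows of this length. TGANTCA was present in Trem2 at -9 and in Itgax at -56, or 2 of the 12 windows, and in 6.75% of all windows. TCACGTG, the E-box of the lysosomal MiT/TFE factors, was in none of the 8 genes and in 3.13% of windows. A match describes letters and says nothing of binding.

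The 4 libraries held between 6148 and 14876 cells after filtering, with a median of 7699 to 12209 UMIs per cell and 91091692 to 158017834 UMIs deposited. Doublet calls removed 2.54% to 3.90% of cells. Pairs of libraries shared 7 to 70 cell barcodes, at most 0.592% of the smaller one. The Purkinje gate found at most 2 cells in a library, so loss of Eftud2 in Purkinje cells could not be checked. In microglia Eftud2 itself was at 29.4 to 31.1 CPM (the gene's UMIs scaled to all UMIs of the class) over the 4 libraries, with overlapping intervals, so no difference was detectable at this depth.

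Microglia and border macrophages were separated by marker genes, none of which is among the 10 genes. Microglia numbered 1163 (WT) and 167 (cKO) at P10, and 640 (WT) and 347 (cKO) at P14. Border macrophages, which line the meninges and vessels, numbered 1295, 120, 59 and 136, and 4 values without labels are in this order throughout. The markers that set each gate, such as P2ry12 and Cx3cr1 in microglia and Pf4, Lyve1 and Mrc1 in border macrophages, lead it by construction. Genes outside the markers that were among the 10 leading ones included Crybb1 and Selplg in P10 WT microglia and Ccl4 in microglia of both P14 libraries. In border macrophages they included Ccl7 and Ccl24 in all 4 libraries and Fcna at P10. A further 4 to 48 macrophages per library met neither rule and were kept apart as unresolved. Median depths were unequal. Microglia had a median of 7116 (WT) and 11033 UMIs (cKO) at P10, and of 8401.5 (WT) and 16091 UMIs (cKO) at P14.

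Levels below are in CPM: the UMIs of all cells of 1 class and library were added up per gene. Values in parentheses are exact 95% Poisson intervals for levels, binomial ones for shares, and conditional binomial ones for log2 ratios. They hold counting error only, not the spread between cells or animals, and UMIs within 1 cell are not independent.

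Trem2 (chromosome 17, 48346401 to 48354147, plus strand, GRCm38) was higher in microglia than in border macrophages. In microglia it was at 1765 CPM (WT) and 1382 CPM (cKO) at P10, and at 1340 CPM (WT) and 1611 CPM (cKO) at P14. In border macrophages it was at 518, 412, 389 and 402 CPM. Every microglial value was above every border macrophage value. Blood myeloid cells had 129, 33.8, 11.7 and 204 CPM, from 158, 20, 42 and 22 cells. Tyrobp (chromosome 7, 30413760 to 30417585, plus strand) had no such preference. Its levels were 3268, 2369, 2268 and 2968 CPM in microglia. Border macrophages had 2951, 2178, 2433 and 2484 CPM. These ranges overlapped, and blood myeloid cells had 3205, 3198, 3223 and 2143 CPM.

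In microglia Trem2 and Tyrobp lay above WT in P14 cKO and below WT in P10 cKO. At P14 the log2 ratio of cKO over WT was 0.27 (0.22 to 0.31) for Trem2 and 0.39 (0.35 to 0.42) for Tyrobp. At P10 it was -0.35 (-0.41 to -0.29) for Trem2 and -0.46 (-0.51 to -0.42) for Tyrobp. In border macrophages at P14 the ratios were 0.04 (-0.20 to 0.30) and 0.03 (-0.07 to 0.13), both within counting error of 0. The P10 matrices come from different program versions, and P10 ratios depended on intron length: the median log2 ratio in microglia was -0.55 for genes with the shortest introns and 2.03 for those with the longest. Set against genes of the same intron length, the P10 ratios of Trem2 and Tyrobp in microglia became 0.04 and -0.09. At P14 the same range of medians ran only from 0.12 to -0.06.

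Apoe and Lpl handle lipids: Apoe is the main apolipoprotein of the brain, and Lpl hydrolyses lipoprotein triglycerides. Apoe (chromosome 7, 19696109 to 19699188, minus strand) had 18723 CPM (WT) and 16620 CPM (cKO) in P10 microglia, and 13249 CPM (WT) and 18847 CPM (cKO) in P14 microglia. It was higher still in border macrophages, at 35958, 27352, 39632 and 33193 CPM. Astroglia, with a mean of 21762 CPM, overlapped both macrophage ranges. At P14, Apoe was higher in cKO microglia, with a log2 ratio of 0.51 (0.49 to 0.52), and lower in cKO border macrophages, at -0.26 (-0.28 to -0.23). At P10 the microglial ratio was -0.17 (-0.19 to -0.15), which became 0.30 against genes of the same intron length.

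Lpl (chromosome 8, 68880491 to 68907448, plus strand) was mainly microglial. Microglia had 283 CPM (WT) and 300.2 CPM (cKO) at P10, and 267 CPM (WT) and 407 CPM (cKO) at P14. The P14 cKO value stood above the other 3, which lay close together. Border macrophages were at 41.5, 52.9, 13.2 and 38.3 CPM, in no library near the microglial range. The microglial ratio was 0.61 (0.51 to 0.71) at P14 and 0.09 (-0.05 to 0.22) at P10.

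Axl, a receptor tyrosine kinase that binds apoptotic cells through Gas6, was higher in cKO at both ages and in both macrophage classes. Axl (chromosome 7, 25757273 to 25788705, minus strand) had 46.2 CPM (WT) and 66.9 CPM (cKO) in P10 microglia, and 65.1 CPM (WT) and 115 CPM (cKO) in P14 microglia. In border macrophages it was at 20.6, 46.9, 22.0 and 44.2 CPM. The microglial log2 ratio was 0.54 (0.23 to 0.83) at P10 and 0.82 (0.63 to 1.02) at P14. The border macrophage ratio was 1.2 (0.72 to 1.64) at P10 and 0.95 (0.03 to 2.14) at P14, the latter from 10 and 60 UMIs. Centred on intron length, the P10 ratio in microglia was 0.23. Axl was not confined to macrophages: mural cells of the only library with enough of them had 139 CPM, and astroglia and fibroblasts, with means of 49.9 and 44.0 CPM, overlapped microglia.

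Cst7 and Itgax were nearly absent from border macrophages. Cst7, which encodes the cathepsin inhibitor cystatin F (chromosome 2, 150570415 to 150578944, plus strand), had 27.2 CPM (WT) and 26.6 CPM (cKO) in P10 microglia, and 34.3 CPM (WT) and 67.2 CPM (cKO) in P14 microglia. Border macrophages had 1 Cst7 UMI in P10 WT and 0 UMIs in the other 3 libraries, which allows at most 2.56, 6.60 and 2.21 CPM there (3 counts). Itgax, which encodes the integrin CD11c (chromosome 7, 128129547 to 128150657, plus strand), was at 16.6, 14.1, 9.09 and 25.4 CPM in microglia. For both genes P14 cKO microglia stood above the other 3 libraries. In border macrophages Itgax had 15 UMIs in P10 WT, 2 in P14 cKO and 0 in the remaining libraries. The P14 ratio in microglia was 0.97 (0.71 to 1.24) for Cst7 and 1.48 (1.00 to 1.99) for Itgax. At P10 it was -0.02 (-0.51 to 0.42) and -0.21 (-0.89 to 0.38), not detectable at this depth. Cst7 also occurred in lymphoid cells of both WT libraries, at a mean of 29.0 CPM from 37 cells each. That mean rests on 2 UMIs at P10 (13.6 CPM, under the 3-count level of 20.4 CPM) and 10 UMIs at P14 (44.4 CPM). Itgax also occurred in blood myeloid cells, at 13.6, 60.8, 15.7 and 0 CPM. The cKO values there come from 20 and 22 cells, and the 0 allows at most 13.6 CPM (3 counts).

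Spp1 encodes osteopontin, a secreted protein that binds integrins (chromosome 5, 104435118 to 104441050, plus strand). Microglia had 208 CPM (WT) and 238 CPM (cKO) at P10, and 92.4 CPM (WT) and 83.3 CPM (cKO) at P14, so both P10 values were above both P14 values. In border macrophages it was at 57.2, 25.6, 83.6 and 119 CPM, and the unresolved macrophages of P10 WT had 575 CPM, above both classes. Spp1 was not confined to macrophages: fibroblasts, at 121, 27.7, 39.7 and 54.2 CPM, overlapped both classes. The genotype ratio of the summed microglia was 0.20 (0.04 to 0.35) at P10 and -0.15 (-0.34 to 0.04) at P14. The P10 sum combined opposite directions by cell depth: the ratio was 4.11 (3.69 to 4.54) in cells under 5000 UMIs, -1.85 (-2.29 to -1.45) in cells of 5000 to 15000 and -1.59 (-1.82 to -1.38) above. These levels rested on few cells. The 5% of microglia with most Spp1 held 88.8%, 88.1%, 90.8% and 67.4% of its UMIs in the 4 libraries, and 1 P14 WT cell held 253 of 488 UMIs. Without the cell richest in Spp1 in each library, the P14 ratio in microglia was 0.68.

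Lgals3 encodes galectin-3, a lectin of phagocytes (chromosome 14, 47367751 to 47386160, plus strand). Microglia had 38.2 CPM (WT) and 8.16 CPM (cKO) at P10, and 28.6 CPM (WT) and 71.2 CPM (cKO) at P14. In border macrophages it was at 34.5, 39.2, 30.8 and 89.8 CPM. The microglial ratio was -2.18 (-3.08 to -1.48) at P10, from 320 and 15 UMIs, and 1.31 (1.04 to 1.60) at P14, from 151 and 375 UMIs. In border macrophages at P14 it was 1.5 (0.74 to 2.46). This gene too rested on few cells. In P14 cKO border macrophages 97 of 122 Lgals3 UMIs were in 1 cell, and without the richest cell of each library the P14 border ratio was -0.30. In P14 WT microglia the cell with most Lgals3 UMIs, 32 of 151, was the same cell that held most Spp1. The richest P14 cKO microglia cell had 136 of 375 UMIs, and without the richest cells the microglial ratio was 1.01.

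The main home of Lgals3 was neither macrophage class but blood myeloid cells. These had 1397, 1115, 1605 and 1418 CPM in the 4 libraries, from 158, 20, 42 and 22 cells, each above every microglial and border macrophage value. The 48 unresolved macrophages of P10 WT, the only library with enough of them, had 784 CPM. Lymphoid cells had a mean of 141 CPM and choroid plexus cells of P14 WT had 125 CPM. Astroglia, with a mean of 47.3 CPM, overlapped microglia and border macrophages. The 8 blood myeloid markers summed to 34.6, 4.35, 13.8 and 28.3 CPM in microglia, with 7, 3, 6 and 8 of the 8 detected, so their sum was high and low in the same libraries of each age as Lgals3. Ly6c2 had at most 1 UMI in any library's microglia. In the blood myeloid cells themselves the same markers summed to 91764, 14657, 60937 and 81123 CPM, far above Lgals3, whereas in microglia they summed to less than Lgals3 in every library. Their part in the Lgals3 ratios was not tested.

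**Figure D1:**
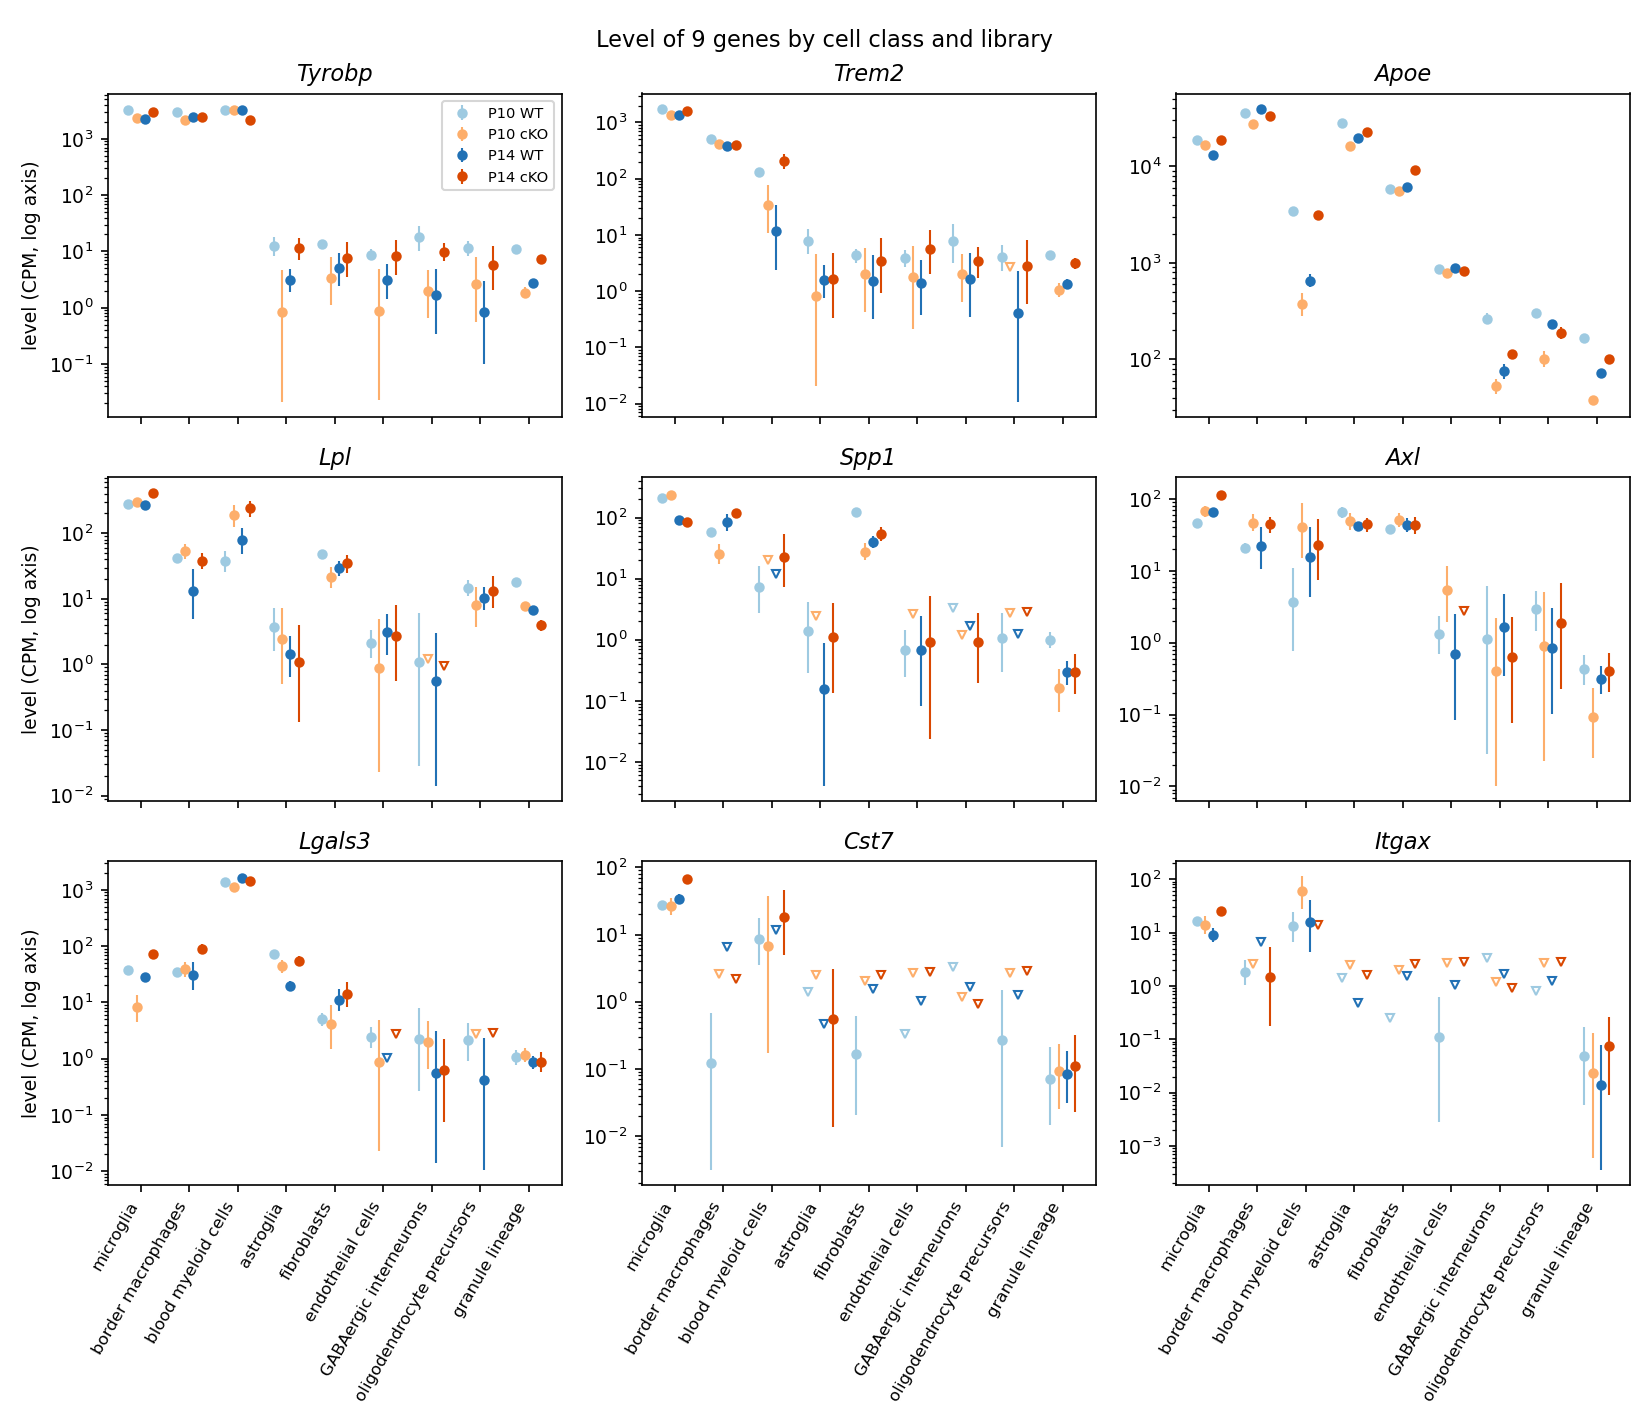
Level of each of the 9 genes in 9 cell classes, in CPM on a log axis. Each point is 1 of the 4 libraries, bars are exact 95% Poisson intervals, and open triangles mark the level of 3 counts where a library had 0 UMIs. Trem2 and Lpl are highest in microglia, Apoe in border macrophages and Lgals3 in blood myeloid cells.

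In the P14 microglia as a whole, 8 of the 9 genes were higher in cKO, each with its interval above 0. Of all genes, 44.1% were higher and 13.6% had intervals above 0. At least 1.5-fold higher were 5 of the 9 (Lgals3, Axl, Cst7, Itgax and Lpl) and none was 1.5-fold lower, where the background over 12039 genes with at least 20 UMIs was 9.21% higher and 7.95% lower. The median of the 9 log2 ratios was 0.61, against -0.06 over all genes. At P10, 3 genes were higher and 6 lower, where 55.3% of all genes were higher. None was 1.5-fold higher and only Lgals3 was 1.5-fold lower, against a background of 31.5% higher and 13.5% lower. The P10 median was -0.17, against 0.11 over all genes, and 0.16 when centred on intron length. In border macrophages 7 of the 9 genes had at least 20 UMIs at either age. At P14, 3 of the 7 (Lgals3, Axl and Lpl) were 1.5-fold higher and none was lower, against 12.9% and 12.2% of all genes, with a median of 0.50 (0.01 over all genes). At P10, 1 was 1.5-fold higher (Axl) and 1 lower (Spp1, at -1.14), against 29.7% and 13.1%, with a median of -0.33 (0.09 over all genes).

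**Figure D2:**
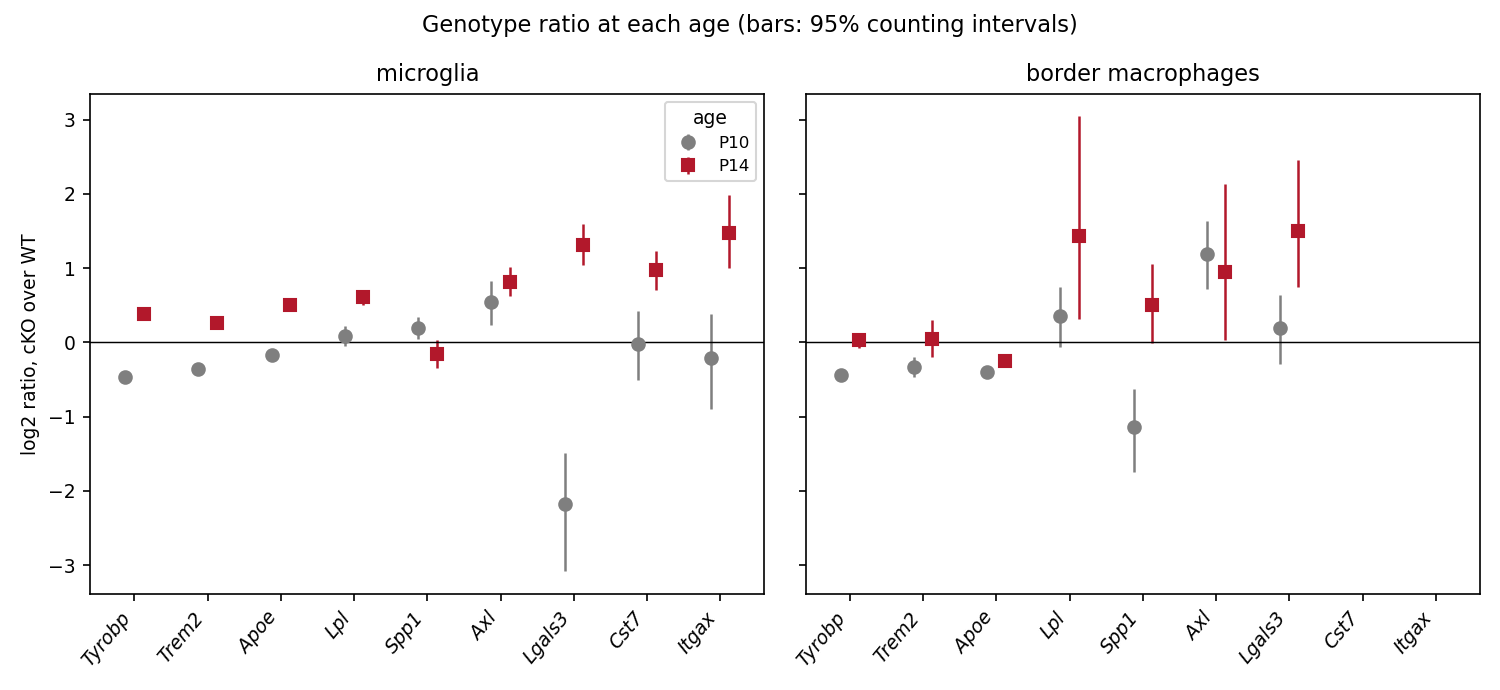
Log2 ratio of cKO over WT for each gene in microglia and in border macrophages, at P10 (grey circles) and P14 (red squares). Bars are exact 95% conditional binomial intervals, and genes with under 20 UMIs are left out (Cst7 and Itgax in border macrophages). In microglia at P14, 8 of the 9 points lie above 0, where 44.1% of all genes do, and Spp1 is at -0.15.

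The P14 cKO microglia were also the deepest, and depth moved with the level of several genes. Cells of over 15000 UMIs made up 5.78% of P14 WT microglia and 54.8% of P14 cKO microglia. In the deep cells Lgals3 had 89.3 CPM (WT) and 86.4 CPM (cKO), a log2 ratio of -0.06 (-0.45 to 0.38). Among cells of 5000 to 15000 UMIs it had 18.7 CPM (WT) and 5.33 CPM (cKO), a ratio of -1.68 (-3.47 to -0.53). In cells under 5000 UMIs it had 37.8 CPM (WT) and 65.2 CPM (cKO), a ratio of 0.79 (-0.44 to 2.01) from 13 UMIs each. Lgals3 was thus not higher in cKO in the middle and deep cells, and in the shallow cells its interval reached 0.

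Cst7 was higher in cKO at each depth. Its P14 ratio was 0.79 (0.08 to 1.5) under 5000 UMIs, 0.69 (0.13 to 1.2) in the middle band and 0.61 (0.07 to 1.25) over 15000 UMIs. Apoe was 0.30, 0.35 and 0.34 and Tyrobp was 0.50, 0.14 and 0.26 in the same bands, with all 6 intervals above 0. Axl was 1.29 (0.24 to 2.40), 0.64 (0.28 to 0.99) and 0.30 (-0.08 to 0.71), smaller in deeper cells. Itgax could be compared at the middle and deep bands only, with 0.88 (-0.20 to 1.81) and 0.79 (-0.08 to 1.95), where both intervals reach 0.

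The remaining genes had no steady difference across depths. Lpl was at 0.32 (-0.25 to 0.87), -0.02 (-0.23 to 0.19) and 0.20 (0.01 to 0.39). Trem2 was at 0.42, -0.00 and 0.30, with only the middle interval reaching 0. Spp1 changed sign, from 1.2 (0.70 to 1.67) in the middle band to -2.55 (-2.77 to -2.34) in deep cells, where the WT level of 523 CPM included the single rich cell described above. At P10 Lgals3 was lower in cKO in both bands in which each library had UMIs, at -2.26 (-3.83 to -1.22) for 5000 to 15000 UMIs and -3.92 (-5.17 to -3.00) above.

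**Figure D3:**
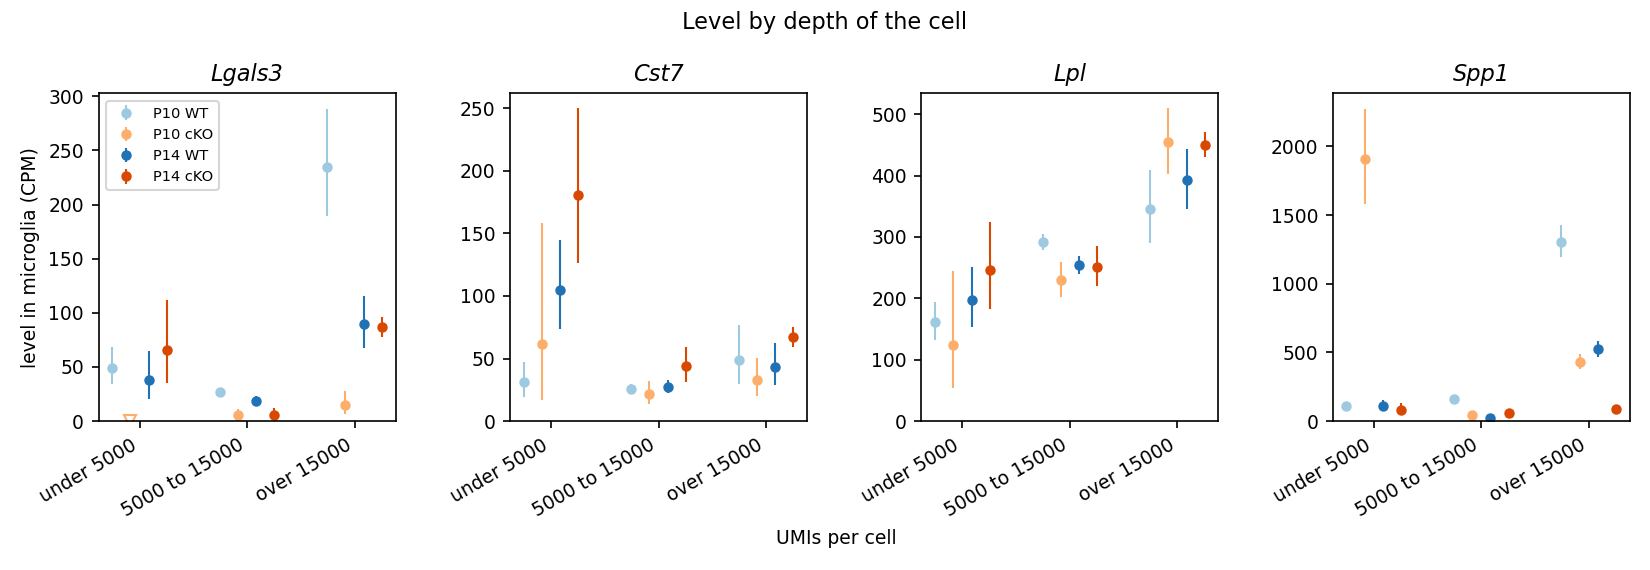
Level of Lgals3, Cst7, Lpl and Spp1 in microglia of each library, in CPM, by depth of the cell (under 5000, 5000 to 15000 and over 15000 UMIs). Bars are exact 95% Poisson intervals and an open triangle, drawn at 0 CPM, marks a library with 0 UMIs. Cst7 is higher in P14 cKO than in P14 WT at each depth, and Lgals3 is not in the middle and deep cells.

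Between ages the genotypes were taken apart. From P10 to P14 in WT microglia, the genes that were lower included Spp1 with a log2 ratio of -1.17 and Itgax with -0.86. Axl and Cst7 were higher at 0.50 and 0.33. In cKO microglia the genes higher at P14 were led by Lgals3 at 3.08 (2.39 to 3.98) and Cst7 at 1.32, and Spp1 was lower at -1.52. In WT none of the 9 genes was 1.5-fold higher and 2 were 1.5-fold lower, against 27.6% and 18.8% of all genes. In cKO 4 were 1.5-fold higher (Lgals3, Axl, Cst7 and Itgax) and 1 lower, against 9.13% and 21.1%. Age and program version cannot be told apart in these ratios, and they share libraries with the genotype ratios.

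Other genes known from disease-associated microglia were mostly higher in P14 cKO microglia as well. Of 29 listed, 27 had enough UMIs, 26 were higher in cKO, 25 of those with intervals above 0, and 8 were 1.5-fold higher, with a median of 0.39. Over all 12039 genes 44.1% were higher, 13.6% had intervals above 0 and 9.21% were 1.5-fold higher. Igf1, a growth factor, had 70.3 CPM (WT) and 164 CPM (cKO), with a ratio of 1.22 (1.05 to 1.40). Lgals3bp, Cd52 and the lysozyme gene Lyz2 had ratios of 1.13, 1.11 and 1.04. The exception was Cadm1, at -0.03. At P10 9 of 28 were higher, against 55.3% of all genes, with a median of -0.23. In border macrophages 11 of 25 were higher at P14, with a median of -0.13, against 51.2% of all genes (53.8% at P10).

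Genes of engulfment and of Trem2 signalling did not share that direction. Of 22 listed phagocytic receptors and bridging proteins 18 could be compared at P14, 8 higher and 10 lower in cKO microglia, with a median of -0.02. The scavenger receptor Cd36 was at 1.21, from 11 and 26 UMIs, and the inhibitory Fc receptor Fcgr2b at -0.52, Cd300lf at -0.50 and the bridging protein gene Mfge8 at -0.48. Of 10 genes of Trem2 signalling, 4 were higher and 6 lower, with a median of -0.20. Hcst, an adaptor related to Tyrobp, was at 1.17 and Lcp2 at 0.23, and the inhibitory receptor genes Siglece and Cd33 were at -0.44 and -0.26.

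Other gene groups differed between the same P14 microglia. Of all genes there, 44.1% were higher in cKO, 9.21% were at least 1.5-fold higher and 7.95% at least 1.5-fold lower. All 12 interferon response genes were at least 1.5-fold higher in cKO, with a median of 1.70, led by Rsad2 at 3.27, Ifit2 at 1.98, Rtp4 at 1.88 and Irf7 at 1.84. All 12 genes of the dissociation response were lower, with a median of -0.45, among them Hspa1b at -2.25, Hspa1a at -0.99, Dusp1 at -0.72 and Jun at -0.67. All 8 proliferation genes were lower too, with a median of -0.66, among them Ube2c at -0.84, Mki67 at -0.74, Top2a at -0.70 and Cenpf at -0.69. Of the 10 microglia markers that set the gate 9 were lower, with a median of -0.17. At P10, 55.3% of all genes were higher in cKO microglia, and ratios depended on intron length as described above. There, 10 of 11 interferon genes were also higher, with a median of 1.67. Dissociation genes were at a P10 median of -0.47 and proliferation genes at -0.15. The part of these groups in the levels of the 9 genes was not tested.

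The test across libraries took genotype with age as a term, on UMIs summed per library, by edgeR's quasi-likelihood test with Benjamini-Hochberg adjustment. In microglia it called 0 of 12251 genes (0% as background), of which 284 had an unadjusted p under 0.05 and none of these was among the 9. DESeq2 called 6 of 11043 genes (0.0543%), again none of the 9. The fitted log2 fold changes were largest for Axl at 0.63, Itgax at 0.61 and Cst7 at 0.44, each with an adjusted p of 1.00 in edgeR. In border macrophages edgeR called 0 of 9245 genes (0%), with 151 at an unadjusted p under 0.05, and DESeq2 called 3 of 18376 (0.0163%), none of the 9. Axl was the only one of the 7 genes tested there with an unadjusted edgeR p under 0.05, at a log2 fold change of 1.03 and an adjusted p of 0.999. In data simulated at the fitted dispersions edgeR recovered 24.5% of 4-fold changes in microglia and 20% in border macrophages, so most changes of that size would have been missed.

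Shares of expressing cells were taken after each cell was thinned to 2000 UMIs, which left out between 9 and 85 shallower microglia per library. Apoe, Trem2 and Tyrobp were found in 88.7% to 100% of microglia in every library. Lpl was found in 28.0%, 26.6%, 29.0% and 36.9% of microglia. Cst7 was found in 4.92%, 6.33%, 6.25% and 10.2%, and Axl in 7.51%, 13.9%, 12.3% and 16.6%. Spp1 was found in 9.09%, 11.4%, 5.56% and 12%, Lgals3 in 2.88%, 0.633%, 3.47% and 6.15%, and Itgax in 2.13%, 1.27%, 1.22% and 3.69%. Lpl, Cst7, Axl, Lgals3 and Itgax thus had both their highest share and their highest level in P14 cKO, with intervals of the share that overlapped those of P14 WT. For Spp1 the P14 shares, 5.56% (3.83 to 7.75) in WT and 12% (8.67 to 16.0) in cKO, did not overlap. They went against the summed levels of 92.4 and 83.3 CPM, where 253 of the 488 WT UMIs were in 1 cell, so no order is read from them.

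Without thinning, the shares followed depth more closely, from 30.5% in P14 WT to 54.5% in P14 cKO for Axl and from 18.1% to 38.9% for Cst7. Cells of the granule lineage, neurons that should lack most of these genes, served as a guide to free RNA. For Lpl this guide is uncertain. In P10 WT the granule lineage had 17.9 CPM of Lpl (16.6 to 19.2). GABAergic interneurons had 1.11 CPM (0.03 to 6.17), astroglia 3.72 CPM and oligodendrocyte precursors 14.8 CPM. Expression of Lpl by the granule lineage itself was not tested. After the same thinning, 6.71% to 28.6% of granule lineage cells had an Apoe UMI and 0.587% to 2.97% an Lpl UMI. A Tyrobp UMI was in 0.384% to 2.32% of these cells, and a UMI of any of the other 6 genes in at most 0.929%. Their median depths were 8324, 10192, 7224 and 11765 UMIs. The shares of Lpl, Axl, Spp1 and Cst7 in microglia were above these in every library, and that of Lgals3 in P10 cKO, 1 cell of 158 (0.0160 to 3.48), could not be told from them. In border macrophages Trem2 was in 50% to 56.9% of cells, Lpl in 2.63% to 4.24% and Axl in 3.22% to 7.02%.

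Co-expression was counted over the 6 inducible genes. Microglia with UMIs of at least 2 of them, after thinning, were 119 of 1078 in P10 WT, or 11% (9.23 to 13.1). In P10 cKO they were 22 of 158, or 13.9% (8.94 to 20.3). At P14 they were 69 of 576 WT cells, or 12% (9.44 to 14.9), and 61 of 325 cKO cells, or 18.8% (14.7 to 23.4). The P14 cKO share was the highest of the 4, and its interval overlapped that of P14 WT. Independent genes of the same shares would have given 91.2, 16.6, 54.5 and 63.8 such cells, so co-expression exceeded that number in 3 libraries and did not in P14 cKO. At least 3 of the genes were found in 22, 2, 11 and 23 cells, where independence would have given 8.14, 1.64, 5.05 and 10.4.

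After thinning, the share of cells with at least 2 of the genes did not simply increase with depth. Among microglia of at least 2000 and under 5000 UMIs it was 7.83%, 22.2%, 15.6% and 21.6% in the 4 libraries, from 13 of 166, 4 of 18, 12 of 77 and 11 of 51 cells. Among microglia of 5000 to 15000 UMIs it was 11.1%, 10.3%, 10.2% and 11.9%, without a difference by genotype beyond counting error. Over 15000 UMIs it was 7 of 22, 7 of 33, 10 of 37 and 40 of 190 cells. Deep cells were above middle cells in each library, and shallow cells were above middle cells in 3 of the 4. The P14 cKO share within deep cells, 21.1% (15.5 to 27.5), was not above the P14 WT share, 27.0% (13.8 to 44.1). Border macrophages with at least 2 of the genes numbered 13, 1, 0 and 4, at most 3.51%. The share was not highest in microglia throughout. Blood myeloid cells had 5 of 131, 8 of 20, 7 of 38 and 3 of 19 cells, or 3.82%, 40%, 18.4% and 15.8%. Unresolved macrophages of P10 WT had 7 of 26, or 26.9% (11.6 to 47.8). In the granule lineage there were 4 such cells in P10 WT and 0 in the other libraries.

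**Figure D4:**
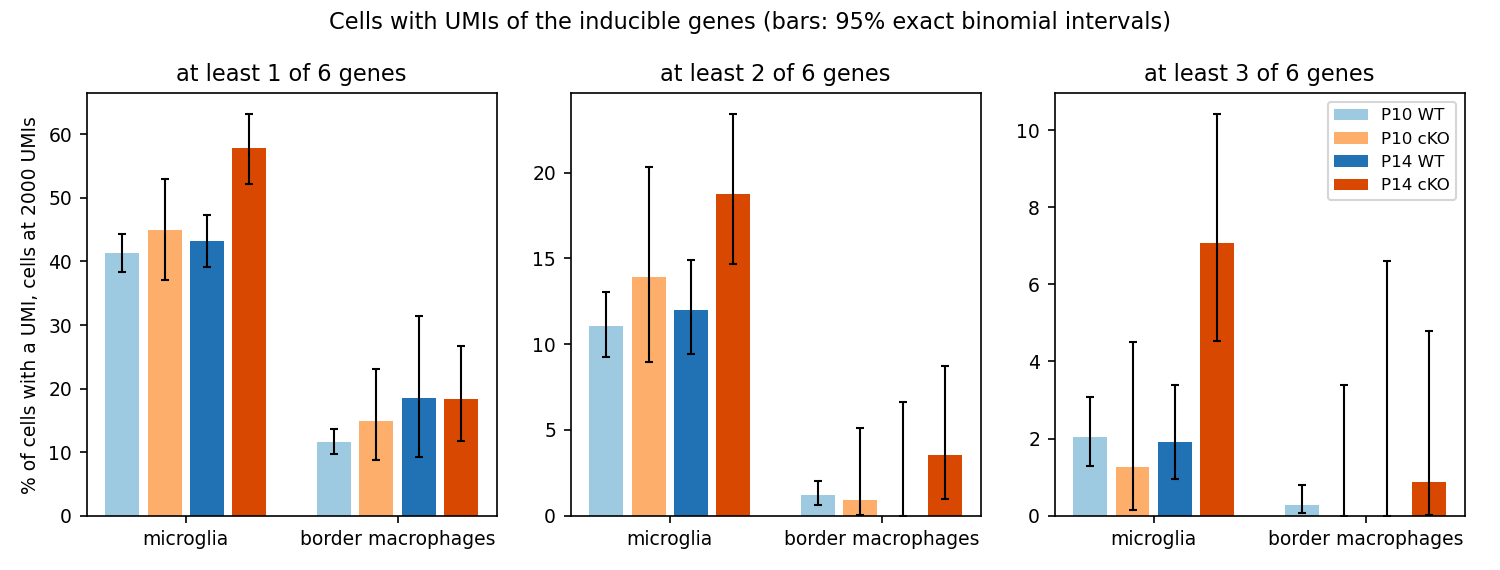
Percent of microglia and border macrophages, thinned to 2000 UMIs, with UMIs of at least 1, 2 or 3 of the 6 inducible genes in each library. Bars are exact 95% binomial intervals. At least 2 genes were found in 11% to 18.8% of microglia and in at most 3.51% of border macrophages.

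Pairs differed in how often they met in 1 cell. Spp1 and Lpl met in 48, 5, 13 and 22 cells of the 4 libraries, or 1.75, 1.04, 1.40 and 1.53 times the product of their shares. Spp1 and Cst7 met in 13, 2, 3 and 9 cells, or 2.70, 1.76, 1.5 and 2.27 times the product. Cst7 and Itgax met in only 4, 1, 2 and 4 cells, and Lgals3 and Spp1 in 7, 0, 7 and 4. Axl and Lpl met in 29, 10, 21 and 23 cells, close to the product in both P14 libraries at 1.02 and 1.15 times. Cst7 and Lpl met in 18, 3, 15 and 14 cells, or 1.21, 1.13, 1.44 and 1.15 times the product. For each pair among Spp1, Cst7 and Lpl the factor was above 1 in each library, though in P10 cKO it rests on 5 cells or fewer. The pairs share cells, so these factors are descriptions with no test.

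Microglia with at least 2 of the inducible genes were then compared with those that had none, within each library, on genes that the split did not use. The cells numbered 119 against 632 (WT) and 22 against 87 (cKO) at P10, and 69 against 327 (WT) and 61 against 137 (cKO) at P14. Of the other disease-associated genes with enough UMIs, 28 of 28, 26 of 26, 27 of 27 and 26 of 27 were higher in the cells with at least 2, where 47%, 47.9%, 44% and 45.6% of all genes were. Their intervals were above 0 for 27, 24, 26 and 25 of them, against 7.96%, 6.65%, 8.74% and 10.2% of all genes. The median log2 ratios were 1.00, 0.75, 0.87 and 0.55, against -0.03, -0.03, -0.07 and -0.05 over all genes, and the exception was Hif1a in P14 cKO. The cells with at least 2 genes were somewhat deeper, with medians of 8557 against 7094 UMIs in P10 WT and 20081 against 15430 in P14 cKO.

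Among these genes, several lipid and growth factor genes chosen after their values were seen stood out. Gpnmb, a lysosomal glycoprotein gene, was at 129 CPM in P10 WT cells with at least 2 genes and at 2.58 CPM in cells with none. In P14 WT it had 33 UMIs in the former and 0 in the latter, and in P14 cKO it was at 29.4 and 1.54 CPM. The ratio of the lipid chaperone gene Fabp5 was 1.70, 0.76, 2.19 and 1.44 in the 4 libraries. That of Igf1 was 1.70, 0.74, 3.32 and 1.02. Csf1, a growth factor for macrophages, was at 1.80, 2.41, 0.67 and 1.23, and Plin2, which coats lipid droplets, at 1.40, 0.56, 1.80 and 1.19. Fabp5, Igf1, Csf1 and Plin2 were higher in each library, though by differing amounts. Gpnmb was higher in the libraries given, and no P10 cKO value is given for it.

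The homeostatic genes P2ry12 and Tmem119 were lower in the same cells. The ratio of P2ry12, a purinergic receptor of resting microglia, was -1.23, -0.88, -1.27 and -1.13, and that of Tmem119 was -1.61, -0.80, -1.06 and -1.18. Both are markers of the gate, whose 10 markers had medians of -0.35, -0.43, -0.40 and -0.34. Of those 10 markers 1, 2, 1 and 0 were higher. Their intervals lay below 0 for 9, 7, 7 and 9 markers and above 0 for 0, 1, 1 and 0. Apoe was higher at 0.51, 0.65, 0.84 and 0.51, Trem2 at 0.37, 0.23, 0.45 and 0.20, and Tyrobp at 0.37, 0.42, 0.45 and 0.37. Of the listed genes of Trem2 signalling other than these, 2 of 10, 1 of 9, 2 of 10 and 3 of 10 were higher, with medians of -0.39, -0.39, -0.41 and -0.18. Their intervals lay below 0 for 5, 4, 5 and 4 genes and above 0 for 0, 0, 1 and 1. Of the interferon genes 3 of 4, 3 of 5, 12 of 12 and 11 of 12 were higher, with intervals above 0 for 2, 1, 11 and 5 and medians of 0.18, 0.29, 2.17 and 0.32. Of the 8 proliferation genes none was higher at P10 and all 8 were at P14. Their medians were -0.41, -3.90, 0.39 and 0.57, and 4 and 7 intervals lay below 0 at P10 and 2 and 4 above 0 at P14. Blood myeloid markers summed to 22.4, 3.87, 38.0 and 20.5 CPM in cells with at least 2 genes and to 38.5, 4.14, 9.66 and 29.2 CPM in cells with none, so in 3 of the 4 libraries they were not higher in the former.

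**Figure D5:**
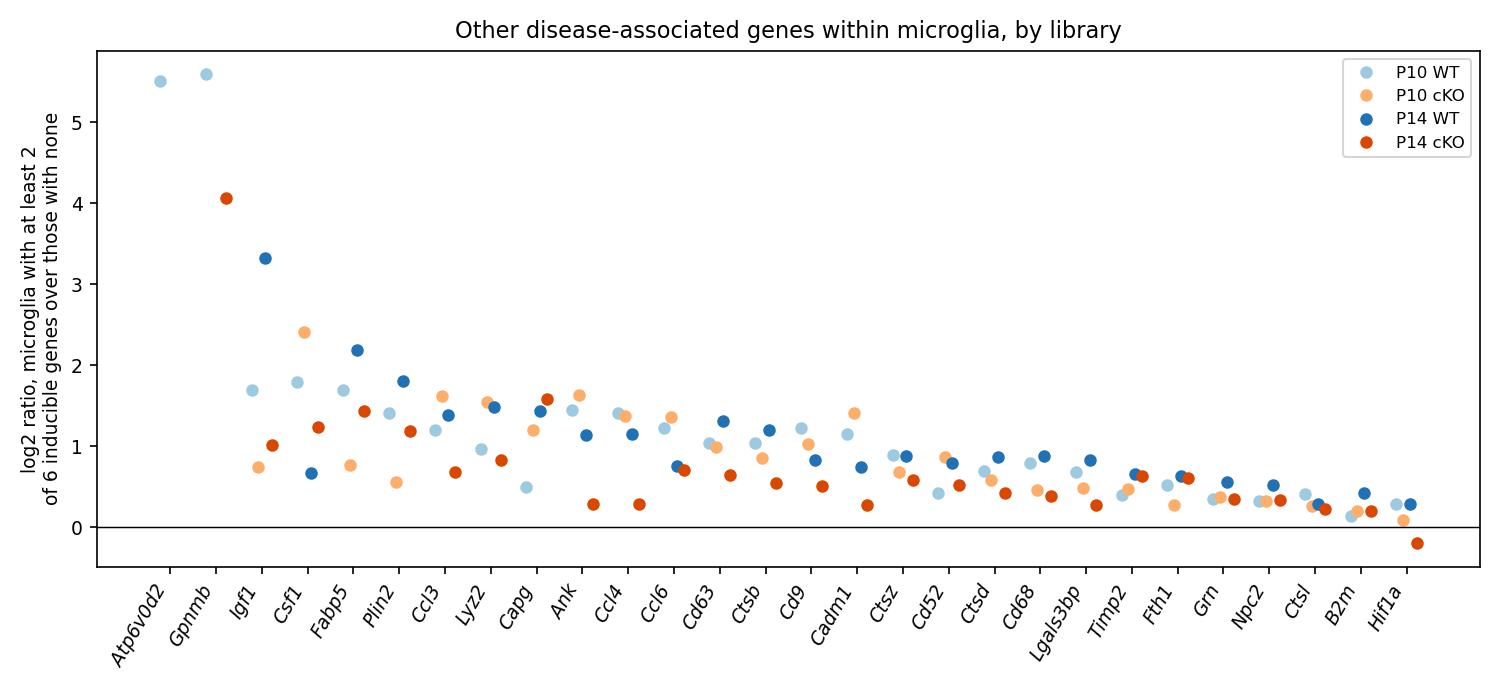
Log2 ratio of each other disease-associated gene between microglia with UMIs of at least 2 inducible genes and microglia with none, 1 point per gene in each library, with genes at 0 UMIs on either side left out. All points but Hif1a in P14 cKO lie above 0.

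Across 42 class and library sums of 13 classes, the genes with the levels most like each member were found among 13430 genes by Pearson correlation of log2 CPM (5 CPM added), as a description, since these sums share libraries and classes. Trem2 was most like Fcrls, Abcc3 and Gpr34 (0.984, 0.981 and 0.980), and Tyrobp most like Fcer1g at 0.996, Fcgr3 and Pld4. Apoe was most like Cst3 (0.919), Dhrs3 and Maf, Lpl most like Ppfia4 (0.877), Tnni2 and Cebpa, and Axl most like Itgb5 (0.888), Itm2b and Renbp. Cst7 was most like Rasal3 (0.952), H2-Oa and Clcf1, Itgax most like Havcr2 (0.952), Mpeg1 and Bcl2a1a, and Spp1 most like Rab3il1 (0.958), Cxcl16 and Abca9. Lgals3 was most like Cd44 (0.886), Mapkapk3 and Cyp4f18.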

How the data were processed

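As deposited, a value is a raw count of UMIs for 1 gene in 1 barcode, and no scaling is named per the file headers. Per those headers Cell Ranger 7.1.0 wrote the P14 matrices, 7.0.1 that of P10 cKO and 5.0.0 that of P10 WT. The build mm10, Seurat 4.1.3 and Cell Ranger 3.0.2 are listed in the submitters' processing notes. Whether intronic reads were counted is not given in the sources used here. The members and gene lists were chosen with earlier results of these data known.

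Barcodes with under 500 genes or over 20% mitochondrial UMIs were left out, as were doublets called by Scrublet (Scanpy 1.11.5) at 1 score threshold of 0.2196 for all libraries, since its automatic threshold called 0 cells in 2 of them. Cells were gated on 134 markers in 16 lists. Macrophages needed at least 4 of 8 shared markers, 2 of them C1q genes, and no other class with over 0.5 of that marker share. They were split by at least 3 microglia or border macrophage markers, and blood myeloid cells had at least 3 of their own. These thresholds were set after the matrices had been opened, from numbers of cells and not from values of the members.

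Log2 ratios had 0.5 UMI added and needed 20 UMIs over both libraries. Classes under 30 cells in a library were left out of class orders, and a count of 0 was given a limit of 3 counts. Gene positions are from GENCODE vM21 (GRCm38), to which 32235 of 32285 genes were matched, and intron lengths were split into 20 bins. Clec7a, annotated there as a polymorphic pseudogene, was not analysed here. Named genes were all members, up to 4 genes per list with the largest absolute P14 ratio in microglia, and 3 genes most like each member among those reaching 20 CPM. Genes named in the comparison within microglia, and exceptions to a count, were added after their values were seen.

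Genotype over both ages was tested in edgeR 4.0.16 (R 4.3.3; TMM, filterByExpr with minimum count 10, adjusted p of 0.05), which left 1 residual degree of freedom, with DESeq2 1.42.0 as the other tool. Both were tested on simulated data with 200 genes changed 4-fold: at a dispersion of 0.05 edgeR recovered 93% in microglia and 94.5% in border macrophages. Ratios, intervals and figures were made in Python 3.11.15 (NumPy 2.4.6, SciPy 1.17.1, pandas 2.3.3, matplotlib 3.10.9). Alternatives were other filters, gates, pseudocounts, thinning depths, weightings and fits. Restricting cells to 5000 to 15000 UMIs, leaving out the richest cell and redrawing the thinning were chosen after seeing the data.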

Additional observations from a re-analysis of the deposited data

Results flagged for a closer look

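For 4 genes the microglia of the cKO library lay on opposite sides of the WT library at the 2 ages. The log2 ratio of cKO over WT was -2.18 at P10 and 1.31 at P14 for Lgals3, -0.17 and 0.51 for Apoe, -0.35 and 0.27 for Trem2, and -0.46 and 0.39 for Tyrobp. The difference between the ages was not tested, since each value rests on 1 library per genotype. Against genes of the same intron length, the P10 values of Apoe and Trem2 were 0.30 and 0.04, on the same side as at P14, and those of Lgals3 and Tyrobp were -2.11 and -0.09.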

How the results depend on the processing

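No paired analysis was possible because each group has 1 library and the labels give no replicate numbers. Leaving out 1 library leaves the fit with age no residual degrees of freedom, so each age alone stands as a value with no test. The P10 cKO and border macrophage sums were small, and intervals hold counting error only.

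The members' median in P10 microglia (-0.17) was -0.21 with at least 1000 genes per cell, -0.14 with called doublets kept, -0.069 without the split of macrophages, -0.15 as a mean over cells, 0.16 centred on intron length, -0.34 in cells of 5000 to 15000 UMIs and -0.23 without the richest cells. Spp1 there became -0.25 with at least 1000 genes and -1.85 in cells of 5000 to 15000 UMIs, and centring gave Apoe 0.30 and Trem2 0.044. The P14 median in microglia (0.61) was 0.50 without the split, 0.50 in thinned cells and 0.35 in cells of 5000 to 15000 UMIs. In that band Lgals3 was -1.68, Trem2 -0.0011 and Lpl -0.016.

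In border macrophages the P10 median (-0.33) was 0.061 when centred on intron length, -0.48 in the middle depth band and -0.47 without the richest cells. Without the split, border macrophages are pooled with microglia and unresolved macrophages, and Spp1 in that pool was 0.14 at P10. Centring gave Apoe 0.061 and Trem2 0.019 in border macrophages at P10. At P14 Lgals3 was -0.75 under a stricter gate, -1.99 in the middle band and -0.30 without the richest cells. Apoe at P14 was 0.50 in the pool without the split, which is not a value of border macrophages alone. The cause of these shifts was not tested. Other single-gene ratios moved too, and some changed sign. Spp1 in P14 microglia went from -0.15 to 1.2 in cells of 5000 to 15000 UMIs. In that band at P10, Lpl was -0.34 in microglia. Border macrophages there had Lgals3 at -2.83 and Lpl at -1.86, where all cells together gave 0.20 and 0.36. Of the P14 microglia values, 112 stayed within counting error, 20 moved and 3 reversed.

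Microglia with at least 2 inducible genes were 4.78% (WT) and 5.42% (cKO) at P10, and 4.43% (WT) and 9.06% (cKO) at P14, when thinned to 1000 UMIs. At 3000 UMIs P10 WT was at 17.1%, P14 WT at 17.3% and P14 cKO at 30.5%. Unthinned shares were 33.1%, 44.3%, 34.4% and 66.6%. Requiring at least 1 gene gave 41.4%, 44.9%, 43.2% and 57.8%, and at least 3 gave 2.04%, 1.27%, 1.91% and 7.08%. Another random draw gave 9.20% in P14 WT, and cells of 5000 to 15000 UMIs gave 11.9% in P14 cKO.

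Against 0 genes called by edgeR, DESeq2 called 6 in microglia and 3 in border macrophages, and edgeR without a filter on low counts called 138 and 55, none of them a member. The fitted fold change over both ages turned in microglia for Lgals3 to 0.30 without a term for age and 1.31 at P14 alone, for Trem2 to 0.27 and Tyrobp to 0.39 at P14 alone, and for Apoe to -0.17, Cst7 to -0.018, Itgax to -0.21 and Spp1 to 0.20 at P10 alone. In border macrophages it turned for Lgals3 to -1.09 under the stricter gate, for Spp1 to 0.032 without a term for age and 0.50 at P14 alone, and for Trem2 to 0.043 and Tyrobp to 0.029 at P14 alone.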
